A study of Mus musculus with 2 samples.

Results

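miR-144, miR-451a and miR-486 are the miRNAs by which red blood cells and their precursors are usually recognised. Their levels were followed in exosomes of mouse macrophages through 7 mature entries, taken by name: mmu-miR-451a, both arms of miR-144 (mmu-miR-144-5p and mmu-miR-144-3p), and both arms of miR-486a (mmu-miR-486a-5p and mmu-miR-486a-3p) and of miR-486b (mmu-miR-486b-5p and mmu-miR-486b-3p), written below without the prefix for mouse. All 7 were among the 1976 mature miRNAs listed in both libraries. Exosomes are small vesicles that cells release. They came from bone marrow-derived macrophages, primary cells that were grown from the marrow of C57BL/6 mice aged 5 to 6 weeks. All cells received the growth factor M-CSF at 10 ng/mL for 7 days. For the M1 group they were then given IFN-γ at 20 ng/mL for 1 day, and for the M2 group IL-4 at 20 ng/mL for 1 day. Both groups then spent 2 days in serum-free medium, from which the exosomes were pelleted, and 500 ng of RNA entered each small RNA library. There was 1 library per group. Values therefore carry no replicate error, and a difference is one between the M1 library and the M2 library, not between the conditions. No red cell or untreated macrophage library was analysed here.

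The cluster of miR-144 and miR-451a is transcribed as 1 unit under the erythroid transcription factor GATA1 and is among the most abundant miRNA products of maturing red cells, where it protects them from oxidative damage. miR-451a is made in an unusual way: its short hairpin bypasses Dicer and is cut by Argonaute 2, so the mature miRNA runs around the loop and has no partner arm. miR-144 comes from the same transcript but is cut by Dicer into a 5p and a 3p arm, of which the 3p arm is the one usually studied as the regulator. miR-486 lies in Ank1, the gene of the red cell membrane protein ankyrin-1, is strong in erythroid cells and in muscle, and needs Argonaute 2 to discard its passenger strand.

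The 7 entries come from 4 hairpins at 2 loci (GRCm38, the assembly called mm10). The miR-144 hairpin lies on the plus strand at chr11:78073005-78073070 and the miR-451a hairpin at chr11:78073170-78073241, with 99 bases between them. Both lie outside annotated genes, 12570 bases from the end of Flot2 for miR-144 and 134 bases from Eral1 for miR-451a. The miR-451b hairpin occupies the same bases as that of miR-451a on the opposite strand. The miR-486a hairpin lies at chr8:23142555-23142682 on the plus strand and the miR-486b hairpin, annotated as Mir3107, at chr8:23142573-23142662 on the minus strand, so all 90 bases of the second fall within the first. Both lie in an intron of Ank1, which is on the plus strand, and both overlap another annotated gene, Gm15816.

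The mature sequences of the chromosome 11 locus are shown because miR-451a and the arms of miR-144, products of 1 transcript, were found at very different levels and have different seeds. Capitals mark the seed, bases 2 to 8. RefSeq (GRCm38.p6) held 3 of the 7 entries, and miR-486a and miR-486b are described by name. miR-101a-3p, from another locus, is shown because it shares bases 2 to 7 with miR-144-3p.
miR-451a: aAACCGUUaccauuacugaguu
miR-144-3p: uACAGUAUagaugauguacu
miR-144-5p: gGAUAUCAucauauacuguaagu
miR-101a-3p: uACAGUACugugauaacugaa
No other listed miRNA with a RefSeq sequence shared bases 2 to 8 with miR-451a or with an arm of miR-144, and miR-101a-3p was the only one that shared bases 2 to 7. The arms of miR-144 are poor in G and C, at 30.4% for the 5p arm and 30.0% for the 3p arm, against a median of 47.6% over the 293 compared miRNAs that have a sequence. Of those 293, 2 had a lower GC content than miR-144-3p. miR-451a had 36.4%.

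The hairpins are shown with the mature miRNAs in capitals, as miR-451a and the miR-144 arms, made by 2 different routes, lie differently in them.
Mir144: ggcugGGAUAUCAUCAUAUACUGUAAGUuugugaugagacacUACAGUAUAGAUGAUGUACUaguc
Mir451a: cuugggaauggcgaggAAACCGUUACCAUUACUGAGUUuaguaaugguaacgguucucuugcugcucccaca
In the structure predicted by RNAfold, mature miR-451a fills bases 17 to 38 of its hairpin of 72 bases. Of its 22 bases, 17 are paired, all on the 5′ side, and 4 are the whole of the terminal loop. In the miR-144 hairpin of 66 bases the arms lie on either side of the loop, with 0 bases in it. There 20 of the 23 bases of the 5p arm and 19 of the 20 bases of the 3p arm are paired.

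All of these entries that were abundant enough to compare had higher levels in the M1 library. miR-451a was 6.60-fold higher there, the 5p entries of miR-486 5.13-fold (a) and 4.68-fold (b), and the 3p entries 4.04-fold and 3.96-fold. Together the 7 entries held 1.35% of the summed level of all miRNAs in the M1 library and 0.249% in the M2 library. Without the miR-486b entries, which may hold the same reads as those of miR-486a, the shares were 0.854% and 0.146%. A level is the deposited log2 value turned back to a linear scale (2 to the power of the value, minus 1), in units of the authors' normalization. A ratio is the M1 value minus the M2 value, on the log2(level + 1) scale, and each fold above is 2 to the power of that ratio.

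For a comparison the level had to reach 10 units in one library or the other, which held for 337 miRNAs. Of the 7 entries, 6 were compared, and miR-144-3p was too low. All 6 were higher by 2-fold or more in the M1 library, and 0 were so in the M2 library. Of all 337 miRNAs compared, 26.1% were 2-fold or more higher in the M1 library and 22.8% in the M2 library. miR-144-5p reached the minimum in the M1 library only, and an entry that passes through its high library alone is bound to be higher there. The other 5 reached it in both libraries, and all 5 were 2-fold or more higher in the M1 library, where the share over the 246 miRNAs that did so was 22.4%. At a 4-fold line 5 of the 6 lay past it, miR-144-5p among them, against 11.3% of the 337. Of the 5 entries at the minimum in both libraries 4 lay past it, and the share over the 246 was not computed at that line. miR-486b-3p fell just short, and miR-486a-3p, at 2.02, lay next to that line. Past that line the count of the 6 was 4 with a pseudocount of 10 or with centring on the median. It was also 4 with scaling that leaves out the top 10 miRNAs, and 6 with scaling to the summed level. The share over all miRNAs at that line was not computed under those settings. These counts thus show only how near the line the 3p entries of miR-486 lie. The median log2 ratio was 2.29 over the 6 entries and 0.04 over all 337 miRNAs, whose ratios had an SD of 1.59. It was 2.23 over the 5 entries that reached the minimum in both libraries, against 0.05 over the 246 miRNAs that did so. The 6 entries come from 2 loci, and the a and b entries of miR-486 are nearly the same measurement, so they are not 6 separate observations.

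**Figure D1:**
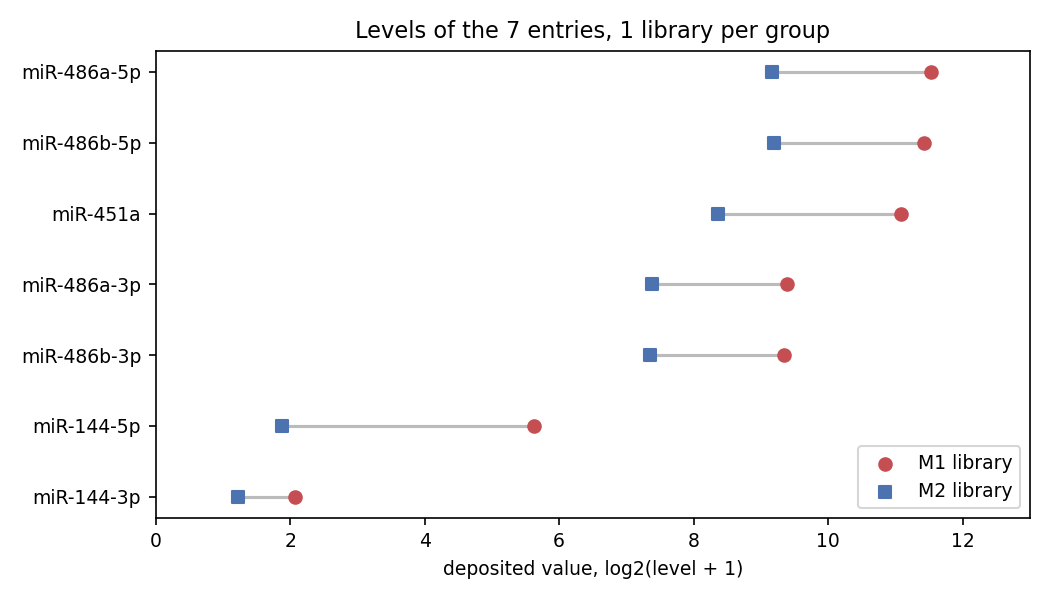
Deposited values of the 7 entries (horizontal axis, log2(level + 1)) in the M1 library (circles) and the M2 library (squares), 1 library each, so there are no error bars. The circle lies to the right of the square for all 7, with the widest gap for miR-144-5p (5.63 against 1.87) and the narrowest for miR-144-3p (2.07 against 1.22).

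Within the cluster on chromosome 11, miR-451a was by far the more abundant product. Its log2 value stood at 11.09 in the M1 library, a level of 2182 units, and 8.37 in the M2 library, a level of 330 units. It ranked 37th of the 1976 entries in the M1 library and 98th in the M2 library. Its log2 ratio of 2.72 was the largest among the 154 compared miRNAs whose mean level was 100 units or more. Its nearest 2 by rank on either side were mixed. In the M1 library these were miR-221-5p, miR-532-5p, miR-5099 and miR-99b-5p, with log2 ratios of -0.16, -0.66, -0.90 and 2.19. In the M2 library they were miR-1843b-5p, miR-378d, miR-125a-5p and miR-127-3p, with log2 ratios of -0.45, -2.58, -0.20 and 1.93. In each library 1 of these 4, miR-99b-5p and miR-127-3p, was thus higher in the M1 library by more than 2-fold, and the other 3 were lower there. miR-451b, the entry from the opposite strand, was listed at 0 in both libraries. By counting error alone, up to 3 reads could lie behind a listed 0. They were worth 2.40 units in the M1 library and 3.67 units in the M2 library.

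miR-144 was present at a small fraction of the level of miR-451a, although they share a transcript. miR-144-5p had a log2 value of 5.63 in the M1 library and 1.87 in the M2 library, which are levels of 48.4 and 2.66 units. Low values fall on even steps, each the worth of 1 read (0.80 units in the M1 library and 1.22 units in the M2 library), and so the entry rests on about 61 reads in the M1 library and 2 reads in the M2 library. The log2 ratio was 3.76 on the log2(level + 1) scale and 4.19 for the levels with no constant added. The second has a 95% interval from those reads (conditional Clopper-Pearson) of 2.40 to 7.40. That interval covers counting error only. It takes the worth of a read seen at low levels to hold at 48.4 units. miR-144-5p lay 5.47 below miR-451a on the log2 scale in the M1 library and 6.50 below it in the M2 library.

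miR-144-3p, the arm usually studied as the regulator, was barely detected. Its log2 values were 2.07 in the M1 library and 1.22 in the M2 library. These are levels of 3.19 and 1.33 units that correspond, when rounded, to 4 reads and 1 read. The log2 ratio was 0.85, or 1.26 with no constant added, for which the counting interval was -1.95 to 7.01, so a difference between the libraries was not detectable at this depth. The 5p arm was the more abundant in the M1 library, with 61 of the 65 reads of both arms, a share of 93.8% (exact Clopper-Pearson 95% interval 85.0 to 98.3%). In the M2 library 2 of 3 reads were from the 5p arm, with an interval of 9.43 to 99.2%, which leaves the balance of the arms there unknown. miR-101a-3p, which has bases 2 to 7 of miR-144-3p but another base at position 8, was far higher at log2 values of 10.40 and 10.03, with a log2 ratio of 0.38.

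The 5p entries of miR-486 were the most abundant of the 7 in both libraries. miR-486a-5p had a log2 value of 11.53 in the M1 library and 9.17 in the M2 library, and miR-486b-5p had 11.43 and 9.20. They ranked 29th and 30th in the M1 library and 76th and 74th in the M2 library. The 2 entries thus differed by 0.10 in the M1 library and by -0.03 in the M2 library, a minus b. Besides miR-486b-5p, the neighbours of miR-486a-5p by rank were miR-10b-5p, miR-30a-5p and miR-22-3p in the M1 library, with log2 ratios of 2.09, 1.36 and 1.28. In the M2 library they were miR-126a-3p, miR-93-5p and miR-143-3p, with 0.71, 0.23 and -0.33. The 3p arms of miR-486 were lower. miR-486a-3p had 9.40 against 7.38 and miR-486b-3p had 9.35 against 7.36, ranks 75 and 77 in the M1 library and 131 and 133 in the M2 library. Same-named arms of a and b were close in both libraries, and how reads that match both hairpins were shared is not given in the sources used here. Summed over a and b, the 5p arm stood at 5714 units in the M1 library and 1164 units in the M2 library, a 4.91-fold difference. The 3p arm stood at 1322 and 329 units, a 4.02-fold difference. If the a and b entries hold the same reads, these sums count a read more than once.

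**Figure D2:**
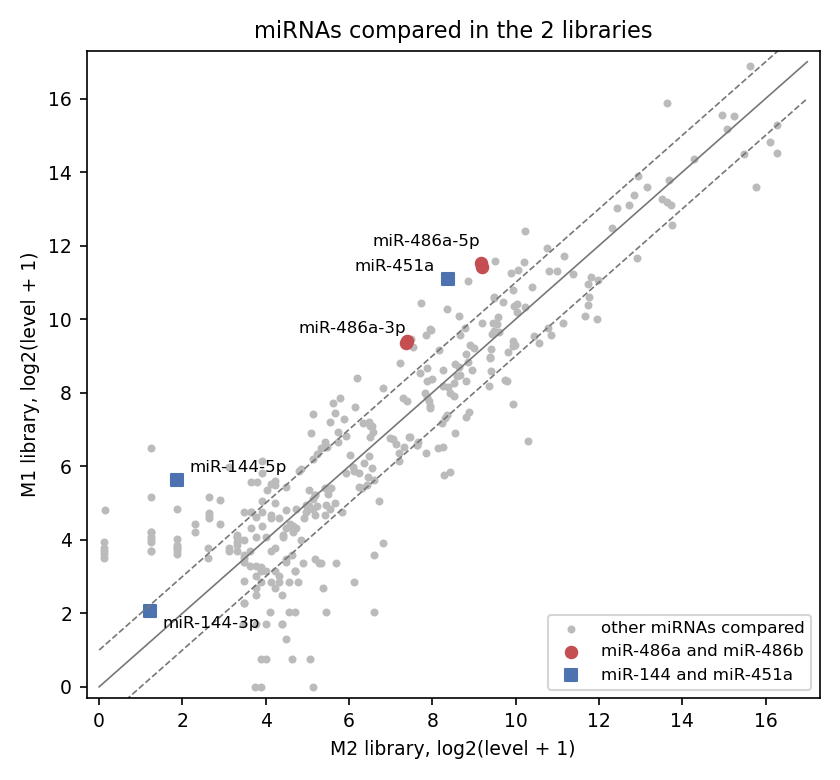
Deposited values of the 337 miRNAs compared, and of miR-144-3p, in the M2 library (horizontal axis) and the M1 library (vertical axis), both as log2(level + 1). The solid line marks equal values and the dashed lines a 2-fold difference. The miR-486 entries (circles) and miR-451a and miR-144-5p (squares) lie above the upper dashed line, and miR-144-3p lies below it.

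The balance of the miR-486 arms was similar in both libraries. The 5p arm of miR-486a exceeded the 3p arm by 2.14 on the log2 scale in the M1 library and by 1.79 in the M2 library. For miR-486b the differences were 2.08 and 1.84. The change of this balance between the libraries, 0.34 for miR-486a and 0.24 for miR-486b, was small beside the median change of 0.77, in either direction, over the 68 hairpins with both arms compared. Of those 68, which include miR-486a and miR-486b, 11 changed less than miR-486a, with miR-486b among them. The hairpins were not matched for level, and the balance carries more counting error where an arm rests on few reads. For miR-144 the difference of the arms was 3.56 in the M1 library and 0.65 in the M2 library, where it rests on the 3 reads described above.

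**Figure D3:**
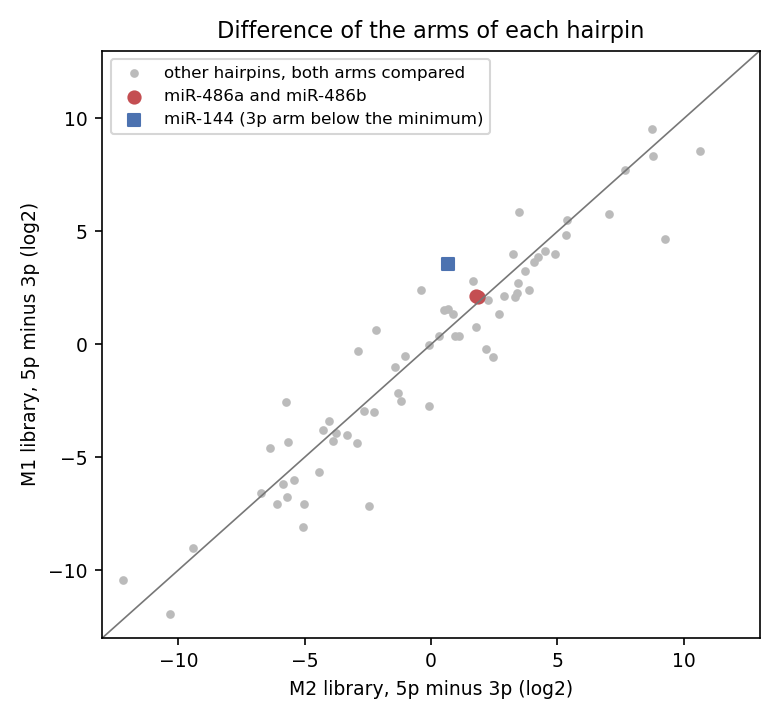
Log2 value of the 5p arm minus that of the 3p arm in the M2 library (horizontal axis) and the M1 library (vertical axis) for the 68 hairpins with both arms compared, and for miR-144. The line marks an equal balance in both libraries. miR-486a and miR-486b lie close to it, and miR-144 lies above it, at 0.65 and 3.56.

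The order of the entries was nearly the same in both libraries. From high to low it ran from the 5p entries of miR-486 through miR-451a, miR-486a-3p, miR-486b-3p and miR-144-5p to miR-144-3p, and the 5p entries of a and b alone changed places. miR-451a minus miR-486a-5p was -0.44 in the M1 library and -0.80 in the M2 library. With 1 library per group there is no spread to say which neighbours in this order differ.

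By distance over the 2 deposited values, the miRNAs most like miR-451a outside this set were miR-99b-5p (distance 0.48), miR-127-3p (0.81) and miR-147-3p (0.92), with log2 ratios of 2.19, 1.93 and 2.71. Those most like miR-486a-5p were miR-10b-5p (0.33), miR-99b-5p (0.59) and miR-155-5p (0.78), with ratios of 2.09, 2.19 and 1.35. The measure uses 2 libraries only and describes likeness of level.

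In plasma work the gap between miR-451a and miR-23a-3p is read as a measure of red cell RNA, because miR-23a-3p changes little when red cells lyse. On the log2 scale miR-451a minus miR-23a-3p was -1.47 in the M1 library and -5.38 in the M2 library, a difference of 3.91 between them. miR-23a-3p itself was not level, at 12.56 and 13.75. With miR-191-5p as the reference, at 11.30 and 10.81, the gap was -0.21 and -2.44, which differ by 2.23. With miR-16-5p, itself abundant in red cells, it was 2.12 and -1.01, which differ by 3.13. With each of the 3 references miR-451a stood lower in the M2 library. That was bound to be so, as no compared miRNA with a mean level of 100 units or more had a higher log2 ratio. The 3 gaps share the same 2 values of miR-451a and are not separate observations. Limits used for plasma PCR do not apply to these values.

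A list of other miRNAs that are abundant in red cells, but also made by many other cells, was spread around a ratio of 0. Of its 15 members 14 were compared, of which 2 were past the 2-fold line towards the M1 library, 1 was past it towards the M2 library, and 11 lay between the lines. Their median log2 ratio was 0.02, and it was -0.20 over the 13 that reached the minimum in both libraries. The 26.1% of all miRNAs compared that were higher in the M1 library is the background for that count. The 4 most abundant were miR-25-3p, with a log2 ratio of 0.60, miR-92a-3p, with 0.96, miR-16-5p, with -0.41, and miR-425-5p, with 0.91. The 2 higher in the M1 library were miR-106b-5p, with 1.32, and miR-363-3p, with 2.96 at an M2 level of 1.38 units, under that of 3 reads. miR-15a-5p, with -1.06, was the one higher in the M2 library, and miR-96-5p was listed at 0 in both.

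miRNAs described in erythroid maturation were mixed. All 15 were compared. The M1 library was 2-fold or more higher for 4, the M2 library for 2, and 9 lay between the lines, the median being 0.43. Those 4 are 26.7% of the list, near the 26.1% of all miRNAs compared. miR-221-3p, which restrains the stem cell factor receptor Kit, had a log2 ratio of 0.28, and miR-222-3p had 0.53. miR-24-3p and miR-27a-3p had 0.10 and 0.43. The 4 higher in the M1 library were miR-210-3p, a hypoxia-induced miRNA, with 2.28, miR-30a-5p with 1.36, miR-155-5p with 1.35 and miR-22-3p with 1.28. miR-150-5p, with -1.70, and miR-23a-3p, with -1.19, were higher in the M2 library. Several of these miRNAs are also made by macrophages.

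miR-486 is also a miRNA of muscle, and a list of muscle miRNAs was low in both libraries. The 7 on the list summed to 25.2 units in the M1 library and 44.0 units in the M2 library, against 7036 and 1492 units for the 4 miR-486 entries. The miR-486 sums may count a read more than once, as the a and b entries may hold the same reads. Of the 7, 2 were compared, miR-206-3p with a log2 ratio of -0.27 and miR-133b-3p with -3.12. miR-133b-3p reached the minimum through the M2 library alone and was bound to be higher there. Those too low to compare went both ways. miR-208b-3p had 1.71 and miR-499-5p 1.09, while miR-1a-3p had -1.76 and miR-133a-3p -1.15. Both libraries listed miR-208a-3p at 0, and the M1 library listed miR-133a-3p at 0.

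Single markers of other cell types were also higher in the M1 library. The counts that follow stand against the 26.1% of all miRNAs compared that were 2-fold or more higher there and the 22.8% that were so in the M2 library. Of 3 hepatocyte miRNAs 1 was 2-fold or more higher there, miR-122-5p, at 15.87 against 13.63, while miR-192-5p and miR-194-5p had log2 ratios of 0.35 and 0.34. With 1 of 3, this list is near the background. The 3 summed to 60272 units in the M1 library and 13050 units in the M2 library, nearly all of it miR-122-5p. Of 6 stromal miRNAs 5 were compared and 3 were 2-fold or more higher in the M1 library. The median of the 5 was 1.79, and the 6 summed to 4413 and 1498 units. Those 3 were miR-10b-5p with 2.09, miR-199a-3p with 1.79, and miR-145a-5p with 3.91. miR-145a-5p reached the minimum through the M1 library alone and was bound to be higher there. Over the 4 that reached it in both libraries, 2 were 2-fold or more higher and the median was 1.05, where miR-143-3p had -0.33 and miR-199a-5p had 0.32. miR-214-3p, too low to compare, had 9.61 units in the M1 library and 0.08 units, under the worth of 1 read, in the M2 library. No marker of these 2 lists was listed at 0. Whether such cells, or red cells, had any part in the levels of miR-451a and miR-486 was not tested. More cells of a type, more RNA per cell and more RNA released in exosomes cannot be told apart in these libraries.

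The lists of other blood cells had medians between -0.69 and 0.55. The 4 compared miRNAs of platelets and megakaryocytes all lay between the 2-fold lines. They had a median of 0.55, sums of 2998 and 2442 units, and ratios of 0.75 for miR-28a-3p, 0.71 for miR-126a-3p, 0.38 for miR-126a-5p and -0.69 for miR-223-3p. miR-126a-3p was also the single endothelial marker. The neutrophil and myeloid list, which includes miRNAs of the macrophages themselves, had 1 of 5 past the line in each direction, near the background either way. Its median was -0.69, and it summed to 25011 and 47972 units. Those 2 were the arms of miR-142a, with 1.72 for the 5p arm and -1.07 for the 3p arm, and miR-21a-5p, the most abundant of the list, had -0.99. miR-223-3p and miR-142a-3p, which mark myeloid and blood cells, were present in both libraries, at 9.30 and 10.00 and at 7.16 and 8.23. The 3 lymphocyte miRNAs had a median of 0.15 and summed to 2139 and 1791 units, with miR-181a-5p at 0.15, miR-342-3p at 0.45 and miR-150-5p at -1.70.

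**Figure D4:**
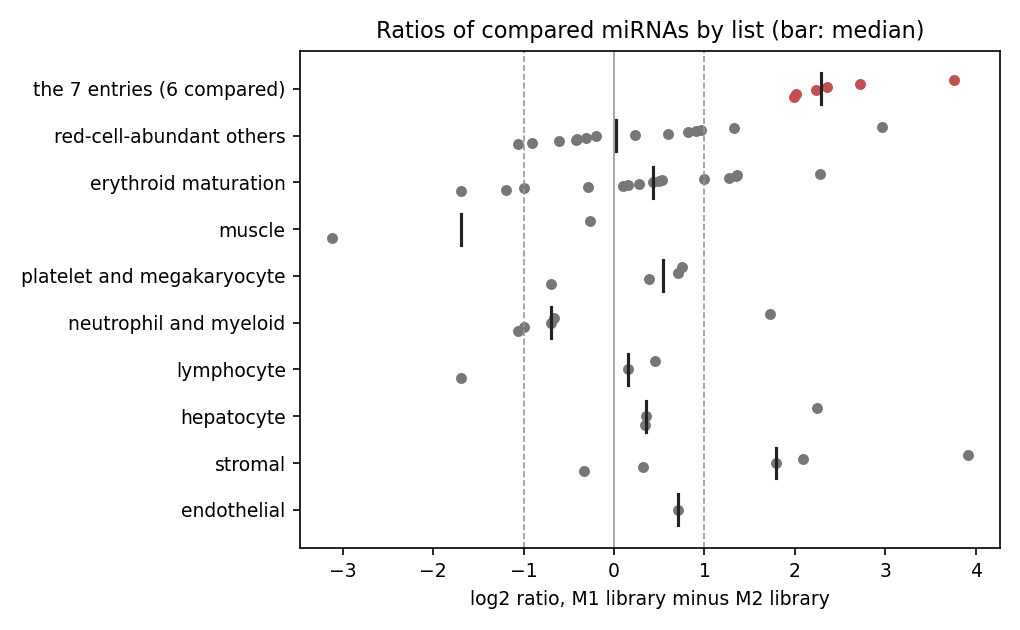
Log2 ratio, the M1 library minus the M2 library (horizontal axis), of each compared miRNA of the 6 entries described here (top row) and of 9 other lists, 1 point per miRNA, with a bar at the median. Dashed lines mark 2-fold. The 6 points of the top row lie between 1.99 and 3.76, and the other red cell miRNAs are spread on both sides of 0.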

How the data were processed

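Small RNA libraries of exosomes from M1 and M2 macrophages were used, 1 per group, as labelled. Bowtie2, bedtools and mm10 are named in the submitters' processing notes. Not given in the sources used here are the counting, the handling of reads with several matches, the use of strand and the normalization. The deposited values are on a log2 scale, as settled from their low values. There the linear levels fell on steps of 0.80 units (M1, 99.4% of 175 values whole within 0.1 step) and 1.22 units (M2, 95.3% of 129 values), taken as 1 read. These values are of miRNAs at or near 0 in the other library. The total depth is unknown, and the minimum of 10 units is about 12.5 reads in M1 and 8.18 reads in M2. Low M2 values shifted with the M1 value, so the libraries were taken to be normalized together. Levels summed to 686353 and 734637 units.

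Computed here were ratios, calls at 2-fold, ranks, medians of lists, and distances between miRNAs. No test of the conditions was possible. The members, lists and minimums were chosen with earlier results of these data known. Named miRNAs are the 7 entries, miR-451b, miR-23a-3p, the next 2 by rank in each direction and the nearest 3 of miR-451a and miR-486a-5p, seed sharers, and the 4 most abundant of each list. Others make up a small count, or serve as references for miR-451a, and were named after their values were seen. Sequences are RefSeq's (GRCm38.p6), positions are from GENCODE M21. Python 3.11.15, numpy 2.4.6, pandas 2.3.3, scipy 1.17.1, matplotlib 3.10.9 and RNAfold 2.7.2 were used.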

Additional observations from a re-analysis of the deposited data

How the results depend on the processing

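No paired analysis was possible because there is 1 library per group, which also means that none can be left out. The 7 ratios were recomputed under 7 other settings each: pseudocounts of 0.1 and 10, scaling to the summed level, the same without the 10 most abundant miRNAs, centring on the median, raising levels under 3 reads to that floor, and no pseudocount (the last chosen after seeing the data). Of the 49 values 48 were above 0. The exception was miR-144-3p at the floor, -0.16, where both levels are near or under 3 reads. For miR-451a and the miR-486 entries the ratios lay between 1.93 and 2.82. Their levels lie far above the constants and the floor, and scaling or centring shifted these ratios by little. A turn of sign was thus not possible for them, and the count of values above 0 says little there. With a pseudocount of 10 the ratio of miR-144-5p was 2.21 and the arm difference of miR-144 in M1 exosomes 2.15, since that constant is large beside their levels. The median over the entries was 2.51 with the a and b entries of miR-486 averaged, and 2.23 without miR-144-5p, which was added after seeing the data. The miRNAs 2-fold or more higher in the M1 and in the M2 library numbered 201 and 229 of 1976 with no minimum. They numbered 37 and 33 of 162 with a minimum of 100 units, and 55 and 37 of 246 with the minimum in both libraries. At a 4-fold line they numbered 38 and 27 of 337. Of the entries, 7, 5, 5 and 6 were compared under these settings in turn, and 0 were past the line towards the M2 library. miR-451a minus a reference was 2.12 in M1 and -1.01 in M2 exosomes with miR-16-5p, and -0.21 and -2.44 with miR-191-5p, against -1.47 and -5.38 with miR-23a-3p. Its sign in M1 exosomes thus turned with miR-16-5p as the reference.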
